A study of Mus musculus with 6 samples.

Results

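The solute carriers described here are the genes of the deposited table whose symbol begins with Slc and a number, other than Slc4a1, with at least 60 counts summed over the 6 tumors. Of 239 such symbols among 13730 genes, 53 fell under that count, 1 was left out by name and 185 made up the set. Of these, 182 encode carriers of 45 families and 3, Slc4a1ap, Slc9a3r1 and Slc9a3r2, are named after a carrier but encode a partner or an unrelated protein. The count rule used the total over both groups and not their difference. Just inside it stood Slc31a2 with 60 counts, Slc18b1 with 61 and Slc32a1 with 64, and just outside it Slc25a43 with 59.98, Slc25a53 with 58 and Slc5a5 with 58.

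Solute carriers are membrane proteins that move small molecules across the plasma membrane or the membranes of organelles, either down a gradient or coupled to the gradient of another solute. The number after Slc names a family related by sequence, and the families divide the traffic of sugars, amino acids, lactate, ions, metals, vitamins, nucleosides and the metabolites of mitochondria. Growing tumors depend on several of them, among them the glucose carrier Slc2a1 and the amino acid exchangers of family Slc7.

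RNA was taken from 6 tumors, 3 of control mice and 3 of mice given sulindac sulfide (SS), into which the body converts the anti-inflammatory drug sulindac and which modulates γ-secretase. All tumors grew from 1000000 C0321 cells placed with Matrigel in the mammary fat pad of female FVB mice aged 6 to 10 weeks. C0321 is a single mesenchymal, claudin-low clone from a triple-negative tumor of Lfng-/- mice, so both groups share that deletion, while the host tissue around the cells does not carry it. Once a tumor could be felt, SS was given daily by mouth at 60 mg/kg for 14 days, and controls received the drug-free treatment, named saline in the series text and vehicle by the study. The labels of the SS samples write sulindac sulfate where the series title has sulindac sulfide, the name used here. The labels do not tie the tumors to separate cages or days, so p-values measure the spread between these 6 samples.

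The tumors were sequenced to between 8468914 and 24441522 counts, of which solute carriers took between 0.557% and 0.624%. Levels are given as CPM, counts per 1000000 after scaling of the libraries, and values follow the order of tumors 1, 2 and 3 of a group. A floor of 3 counts corresponded to between 0.123 and 0.354 CPM per tumor, for counting error only. Krt8, a luminal keratin, lay between 417 and 544 CPM in the tumors, and Epcam between 0.0410 and 2.98 CPM. Of the receptors whose absence defines the diagnosis, Esr1 lay between 4.48 and 6.40 CPM, Pgr between 0 and 3.82 CPM and Erbb2 between 17.1 and 22.4 CPM. Lfng lay between 4.65 and 6.40 CPM, and RNA of host and tumor cells cannot be told apart here, so the table does not check the deletion. The 5 milk protein genes checked were not in the table. Markers of tissue next to the tumor varied within both groups: 6 skeletal muscle genes summed to between 890 and 9401 CPM in control tumors and between 283 and 18026 CPM in SS-treated tumors, and 8 adipocyte genes to between 5.46 and 141 CPM and between 11.4 and 89.2 CPM. Of 4 erythroid genes, 3 had an unadjusted p under 0.05 by edgeR, all lower in SS-treated tumors, where 6.36% of all genes had such a p. Of 6 epithelial genes, 2 had log2 fold changes above 0, the median was -0.09, and Krt18 was the 1 with an unadjusted p under 0.05 by edgeR, at 91.8, 98.1 and 80.4 CPM in control and 70.0, 59.5 and 61.9 CPM in SS-treated tumors. The epithelial sum lay between 508 and 702 CPM in control and between 493 and 612 CPM in SS-treated tumors. The 8 macrophage genes had log2 fold changes above 0 with a median of 0.15, and 0 had an unadjusted p under 0.05 by edgeR. The 6 skeletal muscle genes lay above 0 too, with a median of 0.82. Of 5 fibroblast genes tested, 1 lay above 0, with a median over the 5 of -0.29. Neither list held an unadjusted p under 0.05 by edgeR. Over all genes, 5433 of 10902 lay above 0. The part of these cells in the carriers' values was not tested. In bulk RNA of this kind, fewer cells of a type and less RNA per cell cannot be told apart.

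The solute carrier transcripts of these tumors were dominated by mitochondrial carriers and by a few carriers of glucose, amino acids and ions. Summed over all 185 genes, the level was 5810, 5766 and 6264 CPM in the control tumors and 5811, 5907 and 5681 CPM in the SS-treated tumors, so the groups overlapped. The 10 genes with the highest CPM held 40.5% of that sum, and 14 genes had a mean above 100 CPM, while the median gene stood at 9.66 CPM and 8 genes were under 1 CPM. Of those 14, 8 had their highest value in control tumor 3. Lengths were available for 182 genes, and leading genes were compared per kilobase of transcript, on which scale the median was 2.69 CPM per kilobase. Shares of summed CPM, the counts of genes above and levels called low rest on CPM without correction for length.

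**Figure D1:**
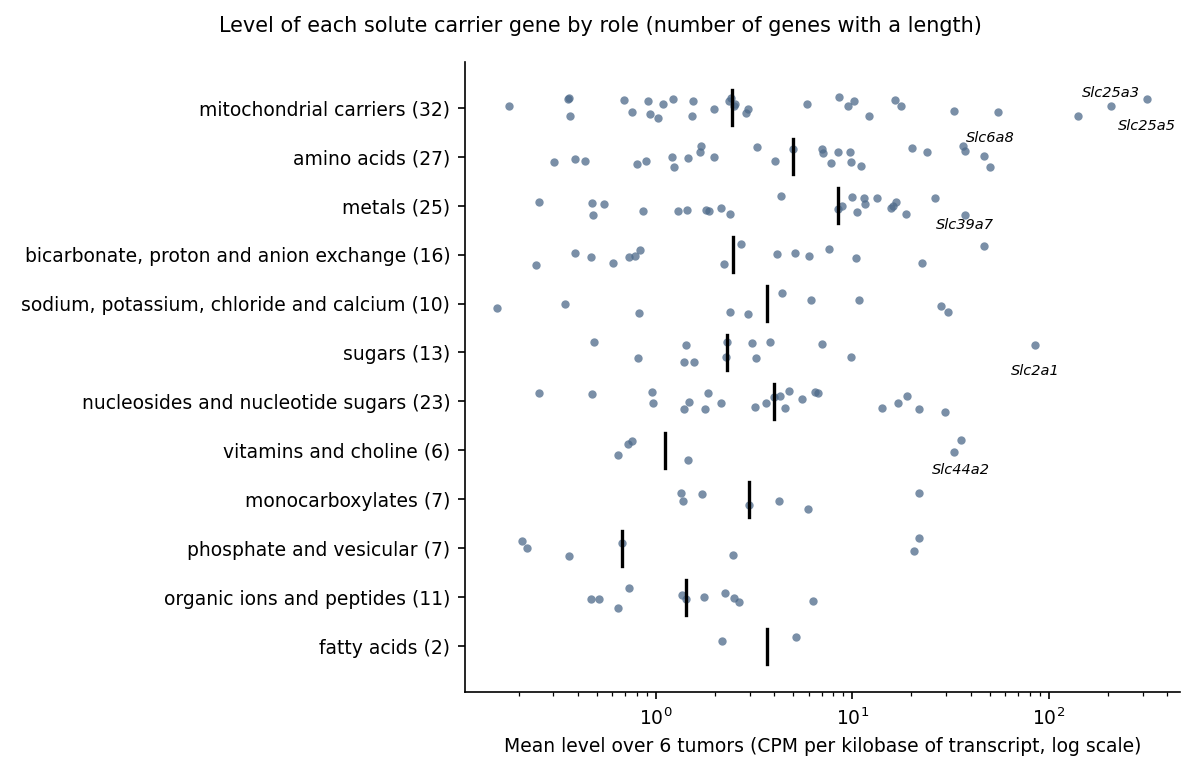
Each point is 1 carrier gene, placed by its mean level over the 6 tumors in CPM per kilobase of transcript on a log axis and grouped by role, and black bars are medians. The adenine nucleotide carrier Slc25a5, at 317 CPM per kilobase, stood farthest to the right, and metal carriers had the highest median, at 8.45 CPM per kilobase.

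Mitochondrial carriers of family Slc25, most of which exchange nucleotides, phosphate and metabolites across the inner mitochondrial membrane, were the largest role with 32 genes and 24.8% of the summed CPM. Slc25a5 and Slc25a4, which swap ADP for ATP, and Slc25a3, which brings in phosphate, had the highest levels per kilobase of the set, at 317, 141 and 207 CPM per kilobase. In order of tumors, Slc25a5 measured 463, 387 and 335 CPM in control and 419, 397 and 358 CPM in SS-treated tumors. For Slc25a3 the values were 326, 358 and 358 CPM in control and 339, 321 and 301 CPM in SS-treated tumors. Neither gene separated the groups, with log2 fold changes (SS minus control) of -0.01 (SE 0.14) and -0.12 (SE 0.09). Slc25a4 lay at 262, 290.5 and 266 CPM in control and 238, 303 and 265 CPM in SS-treated tumors, again with overlapping groups. Slc25a39, which carries glutathione into mitochondria, followed at 55 CPM per kilobase. The level of Slc25a5 is uncertain in one respect, since the annotation holds a pseudogene named after it that may share its reads. Slc39a1 had a pseudogene of that kind too.

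Slc2a1, the ubiquitous glucose carrier GLUT1, was the most abundant carrier outside mitochondria, at 85.4 CPM per kilobase, and alone made up 66.7% of the CPM of the 13 sugar carriers. Slc2a1 measured 322, 232 and 399 CPM in control and 194, 245 and 277 CPM in SS-treated tumors. The lowest value belonged to SS tumor 1, but SS tumors 2 and 3 lay above control tumor 2, and the log2 fold change of -0.41 (SE 0.21) came with an adjusted p of 0.792 by edgeR. Slc2a3, the high-affinity GLUT3, was far lower per kilobase, at 1.42 CPM per kilobase. Of the lactate carriers, Slc16a3, which exports lactate from glycolytic cells, measured 8.3, 15.9 and 17.6 CPM in control and 10.3, 9.78 and 11.2 CPM in SS-treated tumors. Slc16a1, which carries lactate in either direction, lay at 5.22, 6.34 and 5.58 CPM in control and 5.95, 7.27 and 5.15 CPM in SS-treated tumors. Both overlapped between groups.

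Amino acid carriers held 20.3% of the summed CPM in 27 genes. The creatine carrier Slc6a8 led them at 50.3 CPM per kilobase, before Slc7a5, the exchanger of large neutral amino acids, at 46.7, the glutamine carrier family member Slc38a10 at 37.5 and the taurine carrier Slc6a6 at 36.7 CPM per kilobase. Slc6a8 measured 176, 132 and 253 CPM in control and 136, 141 and 197 CPM in SS-treated tumors. For Slc7a5 the values were 129, 204 and 220.3 CPM in control and 178, 123 and 132 CPM in SS-treated tumors. Control tumor 3 was the highest for both genes, and in neither did the groups separate. Slc3a2, the heavy chain that Slc7a5 and Slc7a11 need to reach the cell surface, stood at 7.1 CPM per kilobase, with 13.6, 9.68 and 18.1 CPM in control and 13.9, 11.1 and 11.6 CPM in SS-treated tumors. The cystine importer Slc7a11, which feeds glutathione synthesis, measured 64.2, 56.2 and 74.2 CPM in control and 90.9, 70 and 75.8 CPM in SS-treated tumors. Its SS values lay mostly above the control values, with SS tumor 2 below control tumor 3, a log2 fold change of 0.28 (SE 0.15) and an adjusted p of 0.792. Of the glutamine carriers, Slc38a2 measured 102, 106 and 126 CPM in control and 102, 124 and 113 CPM in SS-treated tumors. Slc1a5, an exchanger of glutamine and other neutral amino acids, lay at 17.6, 6.88 and 6.53 CPM in control and 11, 11.3 and 13.5 CPM in SS-treated tumors, with control tumor 1 above every SS-treated tumor and the other control tumors below them. Its log2 fold change of 0.22 (SE 0.39) became 0.83 without control tumor 1.

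The bicarbonate, proton and anion exchangers, 17 genes, held 9.18% of the summed CPM. Among them, the anion exchanger Slc4a2 and the bicarbonate importer Slc4a7 measured 105, 90.9 and 93.5 CPM and 71.9, 92.3 and 90.2 CPM in control tumors and 101, 86.3 and 91.1 CPM and 81.1, 88 and 83.6 CPM in SS-treated tumors, and overlapped between groups. Of the carriers of sodium, potassium, chloride and calcium, the potassium-chloride cotransporter Slc12a4 led at 30.6 CPM per kilobase. The chloride importer Slc12a2 spread widely, at 85.5, 59.7 and 55.4 CPM in control and 72.4, 106 and 42.1 CPM in SS-treated tumors.

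Metal carriers had the highest median level per kilobase of any role, 8.45 CPM per kilobase over 25 genes. Families Slc39, which bring zinc and other metals into the cytosol, and Slc30, which move zinc out of it, gave 10 and 6 of these genes. Slc39a7, which releases zinc from the endoplasmic reticulum, led per kilobase at 37.3 CPM per kilobase, with 59.1, 56.2 and 66.5 CPM in control and 56.8, 68.1 and 51 CPM in SS-treated tumors. The iron exporter ferroportin, Slc40a1, was low, at 4.51, 1.92 and 4.43 CPM in control and 2.76, 0.954 and 2.87 CPM in SS-treated tumors, and so was the phagosomal metal carrier Slc11a1 of macrophages, at 2.69, 2.46 and 4.97 CPM in control and 3.34, 2.15 and 4.48 CPM in SS-treated tumors. Both overlapped between groups. Slc39a14, which takes up zinc and iron not bound to transferrin, measured 50, 46.3 and 58.5 CPM in control and 49.5, 46.6 and 50.4 CPM in SS-treated tumors, and Slc30a1, the zinc exporter of the plasma membrane, 2.53, 2.95 and 2.38 CPM in control and 2.32, 4.53 and 2.45 CPM in SS-treated tumors. Mitoferrin 1, Slc25a37, which supplies iron for heme, measured 26.5, 18.3 and 26.3 CPM in control and 26.7, 29.5 and 20.6 CPM in SS-treated tumors, while the summed erythroid markers were 2217, 946 and 1042 CPM in control tumors and 457, 1007 and 718 CPM in SS-treated tumors. The part of red cell RNA in Slc25a37 was not tested.

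The remaining roles were smaller. Among 24 genes grouped as carriers of nucleosides and nucleotide sugars, mostly of family Slc35, Slc35b1 led at 29.6 CPM per kilobase. The choline carrier-like genes Slc44a2 and Slc44a1 made up most of the CPM of the vitamin and choline carriers, at 35.8 and 32.9 CPM per kilobase, with 113, 134 and 142 CPM in control and 115, 135 and 107 CPM in SS-treated tumors for Slc44a2. Slc33a1, which brings acetyl-CoA into the endoplasmic reticulum, and the phosphate importer Slc20a1 were at 21.7 and 20.6 CPM per kilobase. Of the fatty acid transport proteins, Slc27a4 lay at 5.16 and Slc27a1 at 2.18 CPM per kilobase, and their log2 fold changes were -0.05 (SE 0.21) and -0.03 (SE 0.28).

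The comparison of SS-treated with control tumors asked whether the drug moved the expression of these carriers. Among 181 solute carriers with enough counts for the test, 0 passed an adjusted p of 0.05 (edgeR, quasi-likelihood F-test, Benjamini-Hochberg over 10902 genes), where the share of all genes passing was 0%. DESeq2 called 36 of all genes, or 0.33%, and 0 solute carriers, but gave no adjusted p for some, among them Slc29a3 and Slc25a30. The lowest adjusted p by edgeR was 0.771 among solute carriers and 0.616 among all genes. At an unadjusted p under 0.05 there were 7 solute carriers, or 3.87% of those tested, against a background of 6.36% of all genes. Among these, SS-treated tumors were higher for 2 and lower for 5, against 3.19% and 3.16% of all genes. The groups did not overlap for 19 solute carriers, or 10.5%, against 12.9% of all genes. Of the 19, 7 were higher and 12 lower, where over all genes 6.51% were higher and 6.4% lower. The 7 and the 19 thus each made up a smaller share of the solute carriers than of all genes. Leaving out control tumor 1 gave 16 solute carriers at an unadjusted p under 0.05, or 8.74% against 7.81% of all genes, and leaving out SS tumor 3 gave 13, or 7.07% against 5.9%. The share at an unadjusted p under 0.05 was thus larger than that of all genes in those fits, and also without control tumor 3 and without SS tumor 1, at 5.41% against 4.58% and 5.43% against 4.93%. The tests left out Slc24a1, Slc25a51, Slc32a1 and Slc35g1, which had too few counts.

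Fold changes were centred near 0 and mostly small. The median log2 fold change of the tested solute carriers was -0.01, and that of all genes tested was -0.0013. A log2 fold change of less than 0.5 in either direction held for 153 solute carriers, or 84.5%, and for 83.5% of all genes. Over 1 in either direction stood 6 solute carriers, or 3.31%, and 4.14% of all genes. These 6 were Slc35f3, Slc13a3, Slc45a3 and Slc6a17 on the higher side and Slc15a2 and Slc18b1 on the lower side, all with mean levels under 5 CPM. Log2 fold changes lay above 0 for 88 solute carriers and below 0 for 93. The coefficient of variation within control tumors had a median of 18.5% for tested solute carriers and 17% for all genes tested, and within SS-treated tumors of 19.4% and 18.1%.

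**Figure D2:**
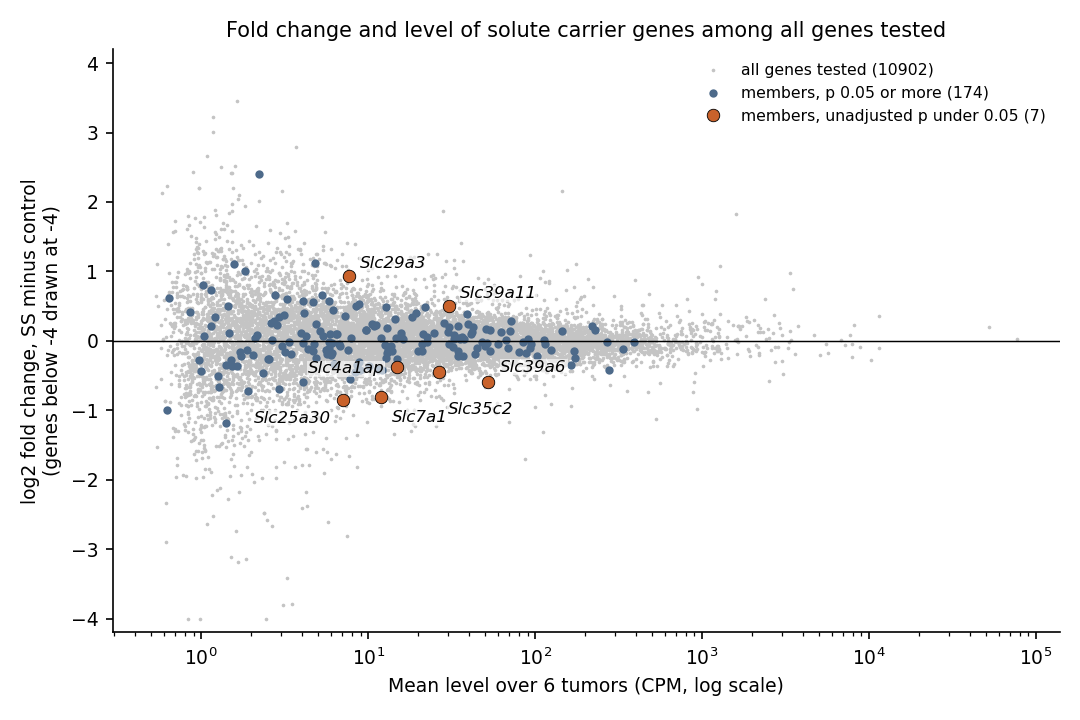
The log2 fold change (SS minus control) of each gene is plotted against its mean CPM over the 6 tumors on a log axis, in grey for all 10902 genes tested, blue for solute carriers and orange for the 7 solute carriers with an unadjusted p under 0.05. The solute carriers lie within the spread of all genes, and 3 genes with a log2 fold change below -4, no solute carrier among them, are drawn at -4.

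By unadjusted p, 2 carriers stood higher in SS-treated tumors. Slc39a11, a zinc importer of the ZIP family, measured 24.1, 25.5 and 26.6 CPM in control and 36.4, 31.2 and 39.8 CPM in SS-treated tumors, that is 35.8 ± 4.31 against 25.4 ± 1.26 CPM (SD over 3 tumors). All SS values exceeded all control values, with a log2 fold change of 0.50 (SE 0.14), an unadjusted p of 0.00876 and an adjusted p of 0.771 by edgeR. The gene lies on chromosome 11, 113244855 to 113565816 in the deposited table, on the minus strand. Slc29a3, an equilibrative nucleoside carrier of lysosomes and mitochondria, measured 5.45, 4.77 and 5.7 CPM in control and 12.3, 11 and 7.1 CPM in SS-treated tumors, or 10.1 ± 2.72 against 5.31 ± 0.485 CPM. Again the groups did not overlap, SS tumor 3 being nearest to the controls, and the log2 fold change was 0.93 (SE 0.27) with an unadjusted p of 0.0089. The other equilibrative nucleoside carriers, Slc29a2 and Slc29a1, were also on the higher side. Slc29a2 measured 3.08, 3.74 and 4.47 CPM in control and 6.39, 5.6 and 4.73 CPM in SS-treated tumors and did not overlap. Slc29a1, which carries adenosine and nucleoside drugs across the plasma membrane, measured 28.5, 35.9 and 37.1 CPM in control and 35.5, 53.2 and 44.3 CPM in SS-treated tumors and overlapped. Their log2 fold changes were 0.56 (SE 0.29) and 0.39 (SE 0.18), and neither reached an unadjusted p of 0.05.

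Lower in SS-treated tumors by unadjusted p were 4 carriers and 1 gene named after a carrier. Slc25a30, a mitochondrial carrier of the uncoupling protein branch, measured 7.51, 9.24 and 10.6 CPM in control and 5.81, 4.65 and 4.73 CPM in SS-treated tumors, or 5.06 ± 0.645 against 9.13 ± 1.56 CPM. Slc7a1, the importer of arginine and lysine, measured 14.9, 10.8 and 20.1 CPM in control and 7.62, 8.58 and 9.97 CPM in SS-treated tumors, or 8.73 ± 1.18 against 15.3 ± 4.64 CPM. Both genes were lower in every SS-treated tumor than in any control tumor, with log2 fold changes of -0.85 (SE 0.24) and -0.81 (SE 0.26) and unadjusted p of 0.00885 and 0.0155 by edgeR. Slc35c2, a Golgi protein linked to the fucosylation of Notch, measured 32.2, 30.3 and 29.8 CPM in control and 19.9, 21.5 and 26.1 CPM in SS-treated tumors. Slc39a6, a zinc importer first described as an estrogen-regulated gene, measured 66.9, 63.2 and 58.1 CPM in control and 26.6, 44.1 and 53.8 CPM in SS-treated tumors. Neither overlapped, and SS tumor 1 was the lowest in both, most clearly for Slc39a6. Their log2 fold changes were -0.45 (SE 0.15) and -0.60 (SE 0.24), with unadjusted p of 0.0188 and 0.0369. Slc4a1ap, a nuclear protein that is not a carrier, measured 16.3, 17.7 and 16.6 CPM in control and 14.2, 11.8 and 12.8 CPM in SS-treated tumors, a log2 fold change of -0.38 (SE 0.16) with an unadjusted p of 0.0483. The adjusted p of all 5 was 0.771.

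**Figure D3:**
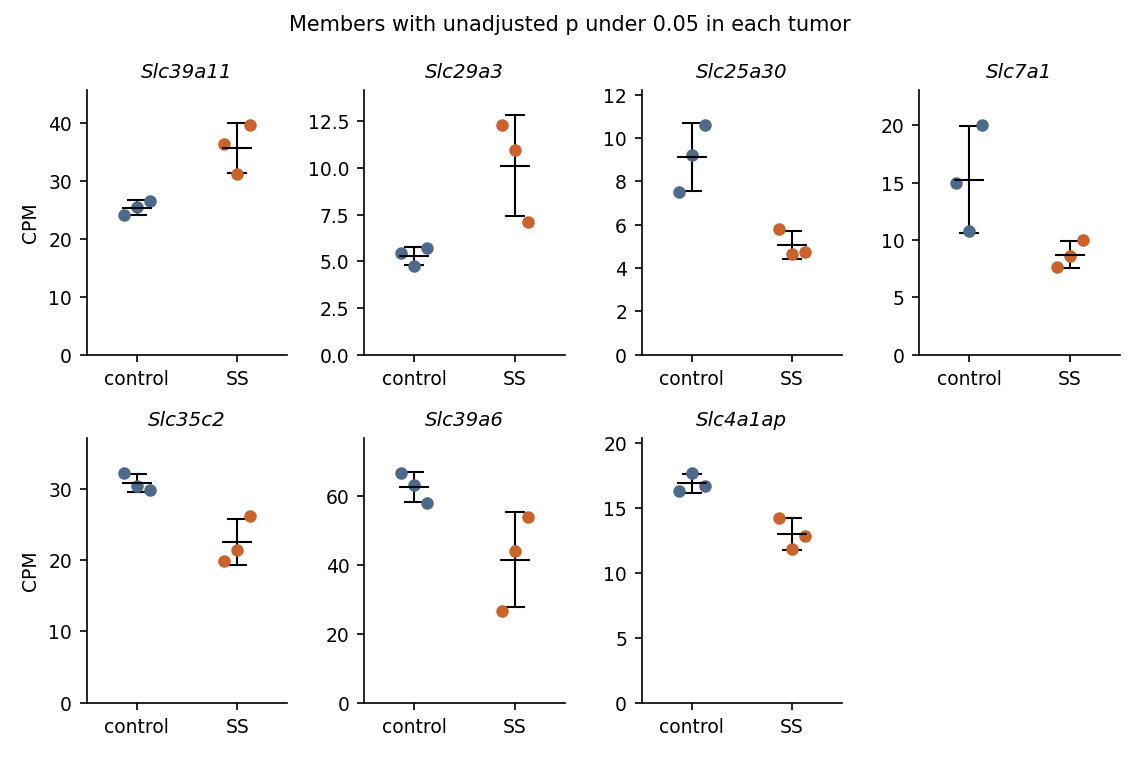
CPM of the 7 solute carriers with an unadjusted p under 0.05 in each control (blue) and SS-treated (orange) tumor, with the mean and SD of 3 tumors as bars and an axis from 0. In all 7 panels the groups do not overlap, and SS tumor 1 is the lowest point for Slc39a6, at 26.6 CPM.

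The sequences before the start sites are shown for the 4 solute carriers with the lowest p and for Slc2a1, to set beside their values the stretch of DNA from which each is started. They are RefSeq promoters of GRCm38.p6, the 250 bases before the start, 5′ to 3′ along the gene, with capitals where the GC box core GGGCGG, the CCAAT box or the hypoxia element core ACGTG occurs on either strand.
Slc39a11 (chr11:113565816-113566065, minus strand): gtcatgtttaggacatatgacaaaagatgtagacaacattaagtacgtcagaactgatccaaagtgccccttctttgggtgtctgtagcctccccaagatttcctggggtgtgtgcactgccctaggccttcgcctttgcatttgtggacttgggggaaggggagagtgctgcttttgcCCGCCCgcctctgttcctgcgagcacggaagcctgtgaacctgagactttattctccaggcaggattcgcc
Slc25a30 (chr14:75787038-75787287, minus strand): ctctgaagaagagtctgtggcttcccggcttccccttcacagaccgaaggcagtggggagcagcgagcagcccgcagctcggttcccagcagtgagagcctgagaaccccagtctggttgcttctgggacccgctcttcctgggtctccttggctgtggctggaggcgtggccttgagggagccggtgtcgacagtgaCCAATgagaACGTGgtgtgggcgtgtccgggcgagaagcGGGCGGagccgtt
Slc29a3 (chr10:60752783-60753032, minus strand): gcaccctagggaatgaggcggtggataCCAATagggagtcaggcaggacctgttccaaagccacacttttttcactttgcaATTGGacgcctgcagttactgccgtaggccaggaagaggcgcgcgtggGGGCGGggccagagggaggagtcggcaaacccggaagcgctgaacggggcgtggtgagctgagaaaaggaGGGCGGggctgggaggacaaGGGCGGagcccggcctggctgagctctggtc
Slc7a1 (chr5:148399905-148400154, minus strand): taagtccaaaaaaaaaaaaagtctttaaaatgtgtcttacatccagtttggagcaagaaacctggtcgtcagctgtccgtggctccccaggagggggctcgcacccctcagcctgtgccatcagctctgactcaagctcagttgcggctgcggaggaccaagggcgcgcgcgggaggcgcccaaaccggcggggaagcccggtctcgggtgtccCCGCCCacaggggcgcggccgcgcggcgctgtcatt
Slc2a1 (chr4:119108495-119108744, plus strand): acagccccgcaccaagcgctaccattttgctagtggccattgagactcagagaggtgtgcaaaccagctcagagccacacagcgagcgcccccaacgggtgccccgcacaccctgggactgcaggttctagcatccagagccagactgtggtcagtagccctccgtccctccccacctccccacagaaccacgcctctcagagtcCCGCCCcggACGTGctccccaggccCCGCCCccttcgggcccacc
The GC box core occurred in all 5 windows, 3 times in that of Slc29a3 and 2 times in that of Slc2a1. The CCAAT box was found in the windows of Slc25a30 and Slc29a3. The letters ACGTG, part of the element bound by hypoxia-inducible factors, were found in those of Slc25a30 and Slc2a1. Of 32851 promoters of the table, 32.7% held the GC box core, 33.8% the CCAAT box and 16.6% the hypoxia element core. For 193 promoters of the 143 solute carriers that matched by symbol, these shares were 63.2%, 31.6% and 23.3%. The promoters of the whole table were not limited to genes with counts in these tumors, unlike those of the solute carriers. The shares thus come from unlike sets, and the difference was not tested. A match of letters is a description and not a binding site.

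By role, the fold changes scattered around 0, and the counts without overlap given here stand against 12.9% of all genes. For mitochondrial carriers 15 of 31 tested were higher in SS-treated tumors, with a median log2 fold change of -0.01, and 2 did not overlap, Slc25a30 and Slc25a45. Slc25a45, a carrier of the inner mitochondrial membrane, measured 4.82, 5.5 and 3.69 CPM in control and 7.69, 7.15 and 6 CPM in SS-treated tumors. The acylcarnitine carrier Slc25a20 overlapped, at 3.32, 5.06 and 3.82 CPM in control and 4.94, 5.96 and 8.45 CPM in SS-treated tumors. For amino acid carriers 15 of 27 were higher, with a median of 0.02, and Slc7a1 was the 1 that did not overlap. For metal carriers 12 of 25 were higher, with a median of -0.0096, and 4 did not overlap, Slc39a11, Slc39a6, the Golgi zinc carrier Slc30a6 and the magnesium carrier Slc41a1. Slc30a6 measured 11.1, 8.99 and 10.5 CPM in control and 7.69, 6.8 and 8.28 CPM in SS-treated tumors, and Slc41a1 96.5, 92.3 and 92.4 CPM in control and 71.9, 90.1 and 85.9 CPM in SS-treated tumors. For nucleoside and nucleotide sugar carriers 13 of 23 were higher, with a median of 0.08, and 4 did not overlap. Those 4 were 17.4% of the role, and the 4 metal carriers 16%.

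The 6 genes of families Slc19, Slc23, Slc44, Slc46 and Slc52, grouped here as vitamin and choline carriers, had log2 fold changes below 0, from -0.55 to -0.04, with a median of -0.25, where 5469 of all 10902 genes lay below 0. For 2 of them the groups did not overlap, which was so for 12.9% of all genes. Some carriers linked to vitamins are grouped elsewhere, and not all lay below 0, with log2 fold changes of 0.26 for the multivitamin carrier Slc5a6 and 2.41 for Slc35f3, so the direction holds for the grouping and not for vitamin carriers in general. Slc52a2, a riboflavin importer, measured 12, 7.72 and 7.92 CPM in control and 6.75, 6.08 and 6 CPM in SS-treated tumors, with a log2 fold change of -0.55 (SE 0.25). Slc44a1, the choline carrier-like protein of the plasma membrane and mitochondria, measured 108, 99 and 123 CPM in control and 89.9, 96 and 96.3 CPM in SS-treated tumors, a log2 fold change of -0.23 (SE 0.11). Neither reached an unadjusted p of 0.05, with 0.0636 and 0.0794 in edgeR's test. By family, Slc29 had all 3 genes higher in SS-treated tumors, as were 5433 of all 10902 genes, with 2 not overlapping, against 6.51% of all genes higher without overlap. The sodium-proton exchangers of Slc9 had 6 of 7 carriers higher, or 5 of 7 after quantile normalization. Slc9a5 of that family measured 11.7, 13.2 and 14 CPM in control and 17.7, 15.9 and 14.7 CPM in SS-treated tumors, without overlap. The bicarbonate carriers of Slc4 had 1 of 7 higher, or 2 with limma-voom and 3 after quantile normalization. Slc44, Slc41 and Slc20 had 0 higher of 2, 3 and 2, and Slc41 had 1 with limma-voom. None of the carriers of Slc9, Slc4, Slc44, Slc41 and Slc20 had an unadjusted p under 0.05 by edgeR.

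**Figure D4:**
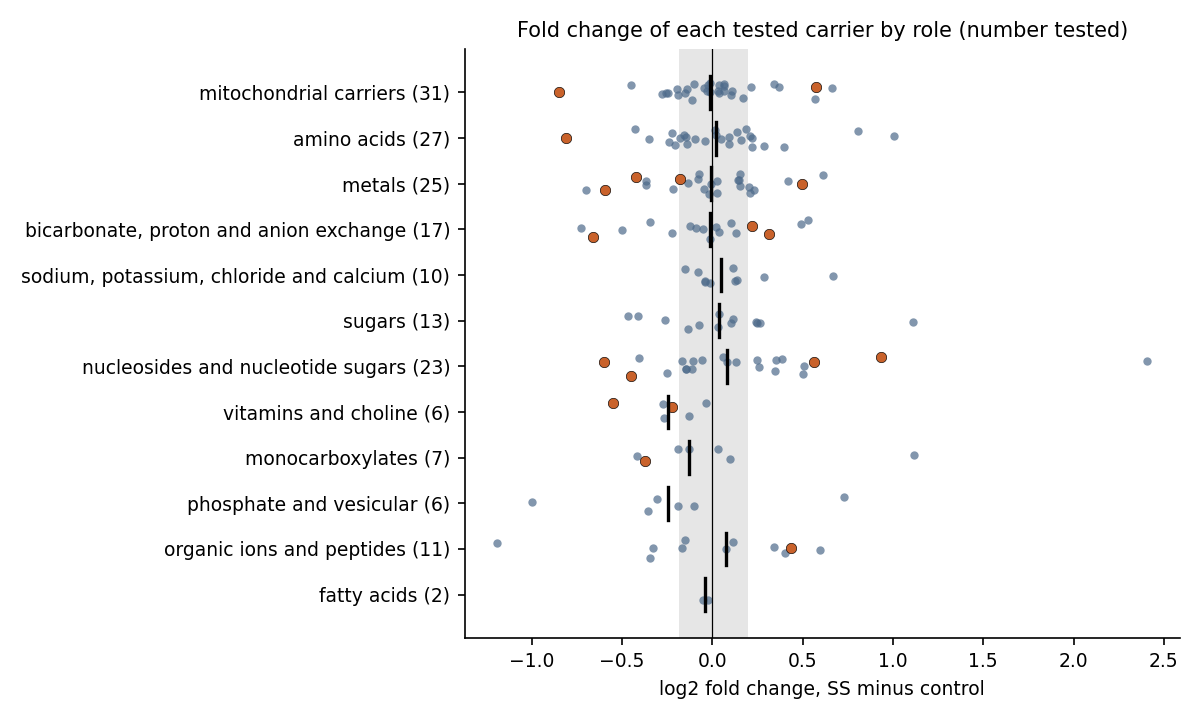
Each point is the log2 fold change (SS minus control) of 1 tested carrier, grouped by role, with orange points where the groups do not overlap, black bars for medians and grey shading for the middle of all genes tested, from the lower to the upper quartile (-0.19 to 0.20). The 6 genes grouped by family number as vitamin and choline carriers lie left of 0, and the farthest point to the right, at 2.41, is Slc35f3.

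Other carriers whose groups did not overlap were low or changed little. Slc15a4, which exports histidine and peptides from endolysosomes of immune cells, measured 5.3, 5.16 and 5.21 CPM in control and 8.13, 5.6 and 7.44 CPM in SS-treated tumors. Slc26a6, an anion exchanger, was low, at 1.66, 1.82 and 1.23 CPM in control and 0.798, 1.07 and 1.1 CPM in SS-treated tumors, and Slc35a5, a Golgi carrier of nucleotide sugars, lay at 4.51, 5.46 and 4.88 CPM in control and 3.99, 2.03 and 3.72 CPM in SS-treated tumors. The monocarboxylate carrier family member Slc16a6 measured 14.7, 14.7 and 19.9 CPM in control and 12.7, 13.9 and 11.5 CPM in SS-treated tumors. Their log2 fold changes were 0.44 (SE 0.25), -0.66 (SE 0.46), -0.60 (SE 0.35) and -0.37 (SE 0.19), and none reached an unadjusted p of 0.05. Larger fold changes came with wide spread. Slc13a3, a sodium-coupled carrier of dicarboxylates such as succinate, measured 6.01, 1.33 and 1.89 CPM in control and 4.35, 6.44 and 8.87 CPM in SS-treated tumors, a log2 fold change of 1.11 (SE 0.59) that became 2.02 without control tumor 1. Slc45a3, a sugar carrier, measured 0.79, 0.492 and 1.64 CPM in control and 1.74, 3.1 and 1.61 CPM in SS-treated tumors, a log2 fold change of 1.11 (SE 0.60) that became 1.74 without control tumor 3.

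Some carriers varied far more between tumors than between groups. With values under the floor of 3 counts set to that floor, the highest and lowest tumor differed more than 10-fold in 8 solute carriers, Slc1a3, Slc35f3, Slc6a17, Slc6a4, Slc15a2, Slc2a4, Slc24a1 and Slc26a10. Slc24a1, Slc26a10, Slc32a1, Slc35f3 and Slc6a17 had at least 1 tumor with 0 counts. The widest range was that of Slc1a3, a glutamate carrier, at 14.1, 0.0983 and 0.616 CPM in control and 3.05, 12.4 and 0.676 CPM in SS-treated tumors. High in control tumor 1, SS tumor 1 and SS tumor 2 were also Slc36a2, a proton-coupled carrier of small amino acids, and Slc2a4, the insulin-responsive glucose carrier GLUT4 of fat and muscle. Slc36a2 measured 7.67, 0.836 and 2.26 CPM in control and 6.02, 6.08 and 1.86 CPM in SS-treated tumors, and Slc2a4 8.69, 2.02 and 0.739 CPM in control and 5.88, 4.53 and 1.77 CPM in SS-treated tumors. These are the same 3 tumors in which the 8 adipocyte markers summed highest, at 141 CPM in control tumor 1 and 64.2 and 89.2 CPM in SS tumors 1 and 2, against 7.67 and 5.46 CPM in control tumors 2 and 3 and 11.4 CPM in SS tumor 3. All 8 adipocyte genes were in the table, Plin1 reaching 37.8 CPM and Adipoq not above 0.596 CPM. The keratins Krt5 and Krt14 were highest in the same 3 tumors too, and the other epithelial genes checked were not. Krt5 measured 73.1, 1.13 and 1.44 CPM in control and 33.9, 26.7 and 0 CPM in SS-treated tumors. The part of fat or other tissue in these carriers was not tested. With Slc35f3, 4 solute carriers had these 3 tumors as their highest with a gap of at least 2-fold to the next. They were chosen after their values were seen.

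**Figure D5:**
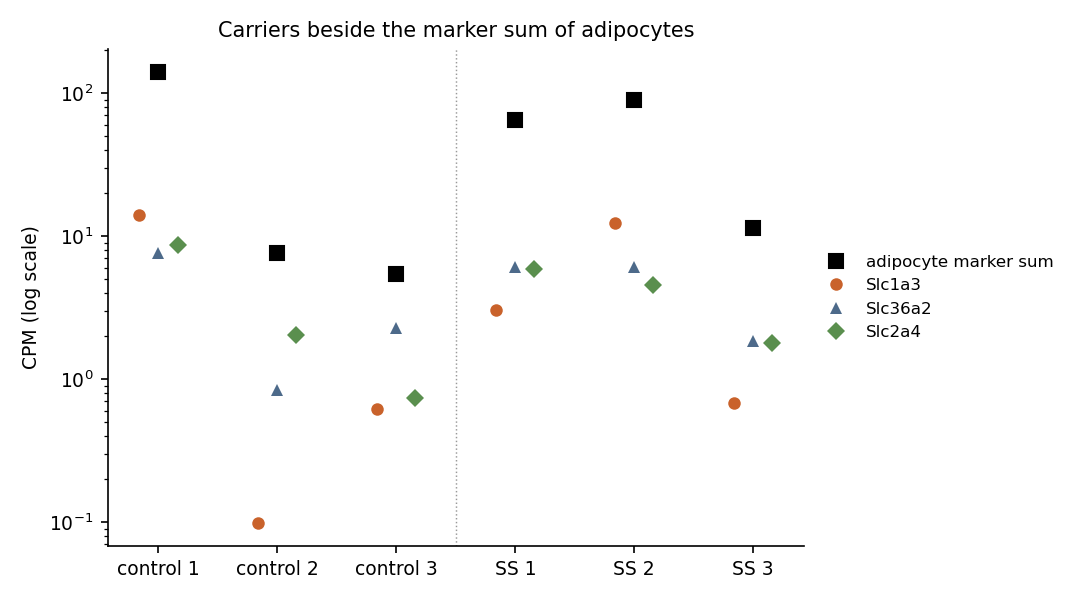
CPM on a log axis in each of the 6 tumors for the sum of 8 adipocyte marker genes (black squares) and for Slc1a3, Slc36a2 and Slc2a4, with a dotted line between control and SS-treated tumors. All 4 series are highest in control tumor 1 and SS tumors 1 and 2, Slc1a3 falling to 0.0983 CPM in control tumor 2.

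Slc6a4, the serotonin carrier, showed another order, at 0.079, 4.42 and 1.72 CPM in control and 1.23, 4.05 and 1.52 CPM in SS-treated tumors. Slc35f3, a carrier linked to thiamine, had 0 counts in control tumors 2 and 3 and in SS tumor 3, and 2.21, 2.61 and 8.47 CPM in control tumor 1 and SS tumors 1 and 2. Its log2 fold change of 2.41 had an SE of 1.91. Slc32a1, the vesicular carrier of inhibitory transmitters, was too low to be tested, with 11, 44 and 6 counts in control tumors and 2, 0 and 1 counts in SS-treated tumors, the latter all under the floor of 3 counts. Slc18b1, a vesicular polyamine carrier, measured 1.03, 0.541 and 0.944 CPM in control and 0.145, 0.238 and 0.845 CPM in SS-treated tumors, and the lysosomal peptide carrier Slc15a3 0.237, 1.67 and 1.27 CPM in control and 2.1, 0.954 and 1.01 CPM in SS-treated tumors. The copper carrier Slc31a2 measured 0.237, 0.492 and 0.78 CPM in control and 0.943, 0.477 and 0.93 CPM in SS-treated tumors. All 3 were at or under the floor of 3 counts in at least 1 tumor. The adaptor proteins Slc9a3r1 and Slc9a3r2, which tether Slc9 exchangers, measured 12.6, 11.6 and 11.3 CPM in control and 15, 10.4 and 11.1 CPM in SS-treated tumors and 26.5, 13 and 15 CPM in the control and 25.8, 33.6 and 16.9 CPM in the SS-treated tumors, and both overlapped. Slc12a5, a potassium-chloride cotransporter of neurons, had 1.19, 3.1 and 2.05 CPM in control and 1.89, 6.68 and 1.69 CPM in SS-treated tumors, and its log2 fold change of 0.67 became -0.25 without SS tumor 2.

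Where a gene had several transcripts, the deposited estimates allowed a look at which one led. Of 71 such solute carriers, 33 had at least 100 counts in every tumor, and in all 33 the same transcript led in both groups, as in 90.9% of all genes of that kind. In 12 of them that transcript held more than 90% of the gene. The share of the leading transcript did not overlap between groups for 2 genes, or 6.06%, against 11.4% of 2272 such genes in the whole table. For Slc9a8, an endosomal sodium-proton exchanger, NM_148929 held 97.5, 95.5 and 96.6% in control tumors and 79.3, 82.5 and 47% in SS-treated tumors. For Slc39a7, NM_001077709 held 90.8, 88.7 and 93.1% and 96.6, 99.8 and 97.0%. Shares of overlapping transcripts are estimates from short reads, and the differences were not tested.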

How the data were processed

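RNA of 6 C0321 tumors (3 control, 3 SS) was sequenced by the authors as stranded, polyadenylated libraries with paired reads of 75 nucleotides. The deposited table held estimated counts of 20648 RefSeq transcripts, to which the authors had applied no normalization. The submitters' processing notes name CASAVA 1.8.1, Bowtie2 2.2.5, STAR 2.5.3a and mm10. The counting tool, and whether it used strand, are not given in the sources used here, so reads of overlapping genes may be shared. The study's own route was quantile normalization and a t statistic. Of 288 transcripts of the set matched to RefSeq genes, 285 lay inside the gene, and the deposited end is mostly 1 base past that of RefSeq.

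Counts were summed by symbol, after 21 symbols turned into dates had been restored, and rounded. Totals ranged from 8468914 to 24441522 per tumor. edgeR 4.0.16 in R 4.3.3 was run on TMM-scaled libraries after filterByExpr, as a quasi-likelihood test without a block, with Benjamini-Hochberg adjustment over all 10902 genes, and was tested on simulated data. SE was taken as the fold change on the log2 scale over the root of F. An exact permutation test of 3 against 3 tumors could not give a p below 0.1. Alternatives used DESeq2 1.42.0, limma 3.58.1 (voom), other scalings and filters, thinning, a replicate block, and each tumor left out.

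Roles were set by family number. Genes named were the 12 highest per kilobase, the 10 higher and 10 lower with the smallest p, the 5 of largest change in each direction among those without overlap, the smallest p of each role, a list of textbook carriers, genes next to the count rule and genes that are no carriers. Slc22a18 and Slc19a1 of that list were not analysed here, and some carriers are not reported here. Slc1a3, Slc36a2, Slc35f3, Slc6a4, Slc9a5, Slc41a1, Slc4a2, Slc12a4, Slc35b1, Slc20a1, Slc5a6 and Slc9a8 were named after their values were seen. The members and lists were chosen with earlier results of these data known.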

Additional observations from a re-analysis of the deposited data

How the results depend on the processing

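With 3 tumors a group and totals from 8468914 counts, a p that missed the threshold does not show that the groups were equal. No solute carrier passed adjustment under any of the 15 alternatives, and the median log2 fold change stayed between -0.04 and 0.02. Over all genes, 36 passed adjustment with DESeq2 and 0 otherwise, and the lowest adjusted p among solute carriers was 0.281 there, for Slc39a11. DESeq2 gave no adjusted p for some solute carriers, among them Slc29a3 and Slc25a30, so these could not pass there. The count of solute carriers at an unadjusted p under 0.05 was 7 and became 11 with quantile normalization and a t statistic, or 6.08% against 6.71% of all genes. These are steps of the study's route, but its own filter and software were not repeated here. The paper reports genes that passed its thresholds for significance and false discovery rate. Leaving out 1 tumor gave between 7 and 16, with 16 without control tumor 1 (8.74% against 7.81% of all genes) and 13 without SS tumor 3 (7.07% against 5.9%). The solute carriers' share was above that of all genes in 4 of the 6 fits that left out a tumor and in 0 of the other 9 alternatives. The count without overlap was 19 and lay between 32 and 44 when 1 tumor was left out, which leaves fewer values to overlap: 44, 32 and 36 without control tumors 1, 2 and 3 and 37, 36 and 42 without SS tumors 1, 2 and 3. These were 17.5 to 24% of solute carriers against 21.1 to 25.4% of all genes, and lower than the share of all genes in each of the 6 fits. With the replicate block 7 solute carriers had an unadjusted p under 0.05, of which 6 were shared with the fit without it, Slc29a1 replacing Slc4a1ap, and 643 against 693 over all genes. The deviations of same-numbered tumors correlated at 0.073, 0.046 and 0.109. Those of differently numbered tumors lay between -0.228 and 0.1825, a range that held the same-numbered values. The numbers were thus not taken to pair the tumors. Slc39a11, Slc29a3 and Slc25a30 had an unadjusted p under 0.05 in all 15 alternatives, Slc35c2 in 13, Slc7a1 in 12, Slc39a6 in 9 and Slc4a1ap in 7. Of 56 tested genes named by rule, 34 kept their direction in every alternative that tested them, which was all 15 for 31 and at least 13 for 3, and 22 changed it in at least 1. Many of the 56 were named for a small p or a large change, and every alternative used these same tumors. Kept directions thus follow in part from that choice, and no share over all genes is given beside them.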

Other observations

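Genes of the solute carrier superfamily that bear other names were read from a list of 43, of which 30 were in the table and 25 were tested. In this list, 4 had an unadjusted p under 0.05 by edgeR, or 16% against 6.36% of all genes, and all 4 were lower in SS-treated tumors, as were 3.16% of all genes, with a median log2 fold change over the 25 of -0.04 and 0 past adjustment. Nipa1, a magnesium carrier, measured 22.6, 16 and 20.6 CPM in control and 8.71, 12.2 and 11.4 CPM in SS-treated tumors, with no overlap, a log2 fold change of -0.88 (SE 0.21), adjusted p = 0.76 by edgeR. Xpr1, the phosphate exporter, measured 133, 140.2 and 156 CPM in control and 124, 122 and 115 CPM in SS-treated tumors, and Mtch2, an insertase of the outer mitochondrial membrane, 172, 162 and 158 CPM in control and 136, 129 and 151 CPM in SS-treated tumors. Both were lower in every SS-treated tumor, with log2 fold changes of -0.25 (SE 0.10) and -0.24 (SE 0.10). Nipal1 overlapped, at 9.96, 2.9 and 5.62 CPM in control and 0.943, 3.93 and 0.592 CPM in SS-treated tumors.

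Partners and regulators of carriers formed a list of 26, of which 24 were in the table, 22 were tested and 3 had an unadjusted p under 0.05, or 13.6% against 6.36% of all genes, with a median log2 fold change of -0.10. Arrdc4, an arrestin-like protein that removes glucose carriers from the cell surface, measured 2.37, 3.1 and 2.3 CPM in control and 6.17, 4.89 and 5.66 CPM in SS-treated tumors, without overlap and with a log2 fold change of 1.10 (SE 0.30). Txnip, its relative, measured 97.1, 93 and 155 CPM in control and 137, 127 and 113 CPM in SS-treated tumors. Tfrc, the transferrin receptor, measured 17.9, 18.5 and 16.5 CPM in control and 28.8, 18.4 and 24.9 CPM in SS-treated tumors, and Atf4, a transcription factor of the amino acid response, 238, 210.1 and 301 CPM in control and 199.8, 195 and 202 CPM in SS-treated tumors. Among these, Arrdc4 and Tfrc were higher and Atf4 lower, and the adjusted p of all 3 was 0.771 by edgeR. Both lists were chosen with earlier results of these data known.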
